A study of Homo sapiens with 10 samples.

Results

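FTO and the 8 numbered AlkB homologues ALKBH1 to ALKBH8 were taken as listed genes and matched by symbol to the Ensembl identifiers of the gene tables. All 9 were found among 58037 identifiers, of which 56993 could be matched to a symbol, and all 9 passed the filter on low counts that left 16406 genes for testing. The data came from A549, a human lung adenocarcinoma cell line, and from A549/DDP, its cisplatin-resistant counterpart (DDP stands for cisplatin). Each line had 2 input libraries, made from RNA fragments that were not pulled down, and 2 m6A-seq libraries, made from fragments bound by an antibody against N6-methyladenosine (m6A). Both lines grew in the same serum-supplemented medium, and no sample label gives a drug treatment at the time of harvest, so the comparison is between 2 lines and not between treated and untreated cells. A549/DDP is represented by a single line, and nothing in the labels says that replicates came from separate cultures, so p-values measure only the spread between these libraries. For the A549/DDP inputs the cell line field reads A549, while their titles and cell type field name the resistant line, and the titles were followed.

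The 9 proteins share a domain of the iron and 2-oxoglutarate dependent dioxygenases, and several of them use it to oxidise a methyl group on a base so that the group is released. FTO and ALKBH5 are the enzymes known to remove m6A from RNA and are called m6A erasers, against the METTL3 complex that writes the mark and the YTH proteins that read it. ALKBH2 and ALKBH3 repair alkylated bases in DNA, and ALKBH3 also acts on RNA. ALKBH1 and ALKBH8 act on transfer RNA, ALKBH7 works in mitochondria, ALKBH4 has been linked to demethylation of actin, and the substrate of ALKBH6 is less well known. Cisplatin forms adducts with DNA that are not simple methyl groups, and the comparison asks here whether the RNA of these genes, or the m6A peaks called on it, differed between the lines.

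The 4 inputs held 29225501 to 35286514 expected counts (read counts that the program RSEM assigns to genes by estimation), with under 0.1% on mitochondrial genes. A further pair of A549 inputs was labelled as the first except for a full stop, and the labels do not name its experiment, so it may belong to another assay. It held 855034 and 982036 counts, of which 75.23% and 73.93% were mitochondrial, and entered only as an alternative. Of 5 epithelial markers, KRT8, KRT18 and CDH1 were called higher in A549/DDP by edgeR, and KRT19 and EPCAM were not called. KRT8 had 2028 and 5231 TPM (a transcript level scaled for length and library size) in A549 and 9818 and 9891 TPM in A549/DDP. KRT19 had 33.34 and 63.95 TPM in A549, 9.24 TPM in A549/DDP replicate 1 and was listed at 0 in replicate 2, and EPCAM had only 2.45 to 6.95 TPM in the 4 inputs. Of 4 markers of other cells, PTPRC, PECAM1 and HBB had at most 0.52 TPM, and COL1A1, a fibroblast gene, had 1.85 to 14.69 TPM. The part of these differences in the results on the 9 genes was not tested. CDKN2A, which is deleted in A549, had at most 1.03 TPM in any input.

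Short stretches before the start of 6 of the genes are shown because they hold motifs that members have in common. They were read from the RefSeq promoter table (GRCh38.p14), which gives 250 bases before each transcript start and held all 9 genes, in 10 windows. Capitals mark CCGGAAG in ALKBH1, ALKBH2, ALKBH3 and the stretch of ALKBH4 named first, and ACTACANNT in the others, on either strand, where N is any base.
ALKBH1 (chr14:77708024-77708053, minus strand): ccggaacacgagagaatctgCTTCCGGatc
ALKBH2 (chr12:109093487-109093516, minus strand): tcccagcgtgctCCGGAAGtgacgcgaccg
ALKBH3 (chr11:43880732-43880761, plus strand): gaggactgcgcaCCGGAAGtagtggcggcg
ALKBH4 (chr7:102464923-102464952, minus strand): gggcgttaacgaCCGGAAGgaagcggaacc
ALKBH4 (chr7:102464877-102464906, minus strand): gcccggcgcggACTACAACTcccagcggcc
ALKBH8 (chr11:107565736-107565765, minus strand): tgtcccgcgggctcatgggAAATGTAGTgc
FTO (chr16:53703906-53703935, plus strand): ctcctgggAAATGTAGTtctccttggactc

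CCGGAAG, a core of ETS factor motifs, was found in the windows of 4 of the 9 genes and in 8.52% of all 35116 windows of that length. ACTACANNT, a short form of the ZNF143 motif, was found in those of ALKBH4, ALKBH8 and FTO and in 3.22% of all windows. Both motifs were chosen after the windows had been read, so their number among the 9 genes is a description. ALKBH4 holds both, and the printed sites of the 2 motifs do not overlap. TGACNNNGC, the antioxidant response element bound by Nrf2, was found in none of the 9 genes and in 10.9% of all windows. ACGTG, the core of the hypoxia response element, was likewise in none of the 9 and in 18.5% of all windows, while its variant GCGTG was in 5 of the 9 and in 32.2% of all windows. Counted by window, GCGTG was in 6 of the 10 member windows, CCGGAAG in 4 and ACTACANNT in 3. The member windows held from 48.8% (ALKBH8) to 76.0% (ALKBH4) G and C, against a median of 58.0%. The part of this in the motif counts was not tested. No match says only that these letters are not in the 250 bases searched. For FTO the transcript start of the table lies inside the gene span, so that 193 of these bases are in the span and 57 before it.

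The RNA of the 9 genes was first compared between the lines in CPM, counts scaled to a common library size, here after TMM normalization. FTO, ALKBH4 and ALKBH7 lay higher in both A549/DDP inputs than in both A549 inputs. ALKBH1, ALKBH2, ALKBH3 and ALKBH8 lay lower in both, while the values of ALKBH5 and ALKBH6 overlapped. By the quasi-likelihood test of edgeR, adjusted over all genes by the Benjamini-Hochberg method, 0 of 9 members had an adjusted p under 0.05, against 14.9% of the 16406 genes tested. An unadjusted p under 0.05 was reached by 5 of 9 members (FTO, ALKBH1, ALKBH2, ALKBH3 and ALKBH8), against 32.7% of all genes. The 2 lines' values did not overlap for 7 of 9 members, against 62.4% of all genes, so this count alone does not set the members apart. For 3 members both A549/DDP values lay above both A549 values (29.7% of all genes), and for 4 members both lay below (32.7% of all genes). The median log2 fold change of the members was 0.04, and that of all genes tested was 0.00. The choice of tool moved the calls. DESeq2 called ALKBH1, ALKBH3 and ALKBH8 lower, where it called 25.8% of all genes, and limma on log2(TPM + 1) called 0 of 9, where it called 9.69% of all genes. With the replicate number of the labels as a block, edgeR called ALKBH3 and ALKBH8 lower, and 21.6% of all genes.

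**Figure D1:**
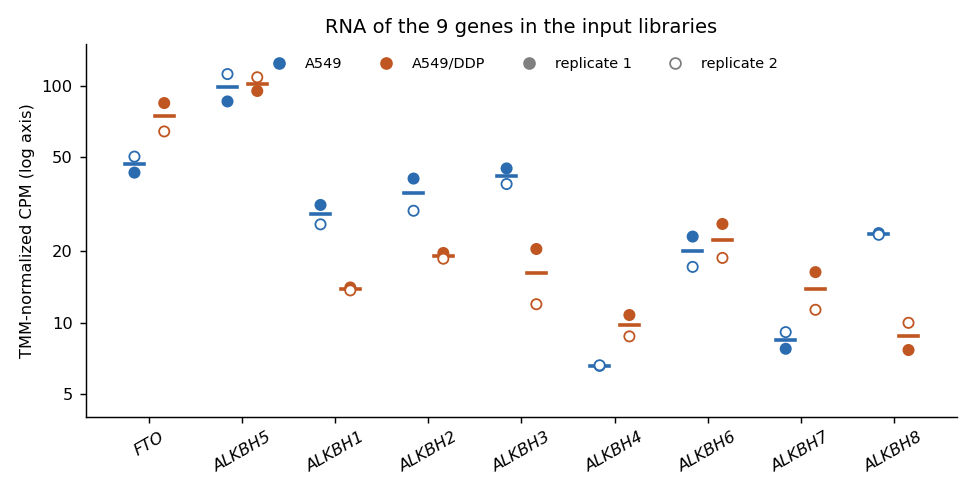
TMM-normalized CPM of the 9 genes (log axis) in the A549 inputs (blue) and A549/DDP inputs (orange), with replicate 1 filled, replicate 2 open and the mean of the 2 libraries as a bar. The points of the 2 lines overlap for ALKBH5 and ALKBH6, and for ALKBH8 the A549/DDP values of 7.66 and 9.98 lie under the A549 values of 23.9 and 23.5.

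FTO (ENSG00000140718.19, chromosome 16, 53703963 to 54121941, GRCh38) had 42.9 and 50.2 CPM in A549 and 84.5 and 64.1 CPM in A549/DDP. Both A549/DDP libraries were above both A549 libraries, and the spread between replicates was wider in A549/DDP. The log2 fold change was 0.67 (standard error 0.23, 95% interval 0.10 to 1.24), and its adjusted p in edgeR was 0.107. FTO was higher in A549/DDP under all 13 alternatives that kept the first A549 pair, and with the second pair alone its value was 0.99, against a median over all genes of 0.80 in that fit. Over the 14 alternatives it had adjusted p values from 0.0551 to 0.445 over edgeR, DESeq2 and limma, and was not called under any of them.

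ALKBH5 (ENSG00000091542.8, chromosome 17, 18183828 to 18209954), the other eraser, had 85.8 and 112 CPM in A549 and 95 and 109 CPM in A549/DDP. The A549/DDP values lay between the A549 values. Its log2 fold change was 0.04 (standard error 0.21), with an edgeR adjusted p of 0.929, and the 95% interval from -0.47 to 0.55 leaves room for a change in either direction. The sign of this small difference turned under 6 of the 14 alternatives, and the lowest adjusted p among them was 0.67.

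The repair enzymes ALKBH2 and ALKBH3 were lower in both A549/DDP libraries. ALKBH2 (ENSG00000189046.10, chromosome 12, 109088189 to 109093472), which repairs double-stranded DNA, had 40.5 and 29.7 CPM in A549 and 19.7 and 18.6 CPM in A549/DDP. The A549 replicates of ALKBH2 differed by more than the A549/DDP replicates. Its log2 fold change was -0.87 (standard error 0.30) at an edgeR adjusted p of 0.104, and it was negative under all 14 alternatives without being called in any of them (adjusted p in edgeR, DESeq2 and limma from 0.0683 to 0.48).

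ALKBH3 (ENSG00000166199.12, chromosome 11, 43880831 to 43920274), which prefers single-stranded substrates, had 44.7 and 38.5 CPM in A549 and 20.4 and 12.0 CPM in A549/DDP. The lower A549 library was 38.5 CPM and the higher A549/DDP library 20.4 CPM, so the lines did not overlap. Its log2 fold change was -1.36 (standard error 0.35, 95% interval -2.22 to -0.51), with an adjusted p of 0.0516 in edgeR. Under the alternatives the adjusted p ran from 0.00106 to 0.386 over edgeR, DESeq2 and limma, and ALKBH3 was called lower under 7 of the 14. It was negative under 13 of them and turned to 1.95 with the second A549 pair, where it had 1 and 0 counts. With the replicate number as a block the log2 fold change was -1.41, with an edgeR adjusted p of 0.00788. Without A549 replicate 1 the edgeR adjusted p was 0.0482, without A549 replicate 2 it was 0.0111 and without A549/DDP replicate 1 it was 0.0242, fits in which more genes passed the filter than with all 4 libraries. A transcribed pseudogene, SEC14L1P1, and the antisense RNA ALKBH3-AS1 lie over ALKBH3, which had 417 to 1472 expected counts. Both also had fewer counts in A549/DDP, SEC14L1P1 with 105 and 61 counts in A549 and 38 and 0 in A549/DDP, and ALKBH3-AS1 with 22 and 31 against 0 and 0, and their part in the value of ALKBH3 was not tested.

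ALKBH1 and ALKBH8, described above as acting on transfer RNA, were also lower in both A549/DDP libraries, and no class of enzymes was tested. ALKBH1 (ENSG00000100601.9, chromosome 14, 77672404 to 77708023) had 31.4 and 26.0 CPM in A549 and 14.1 and 13.7 CPM in A549/DDP. Its log2 fold change was -1.05 (standard error 0.31, 95% interval -1.81 to -0.28), with an adjusted p of 0.0762 in edgeR, and of 0.038 in DESeq2. ALKBH1 was negative under all 14 alternatives, and DESeq2 was the only one that called it.

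ALKBH8 (ENSG00000137760.14, chromosome 11, 107502727 to 107565735), which has a methyltransferase domain beside its AlkB domain and modifies the wobble uridine without demethylating it, had 23.9 and 23.5 CPM in A549 and 7.66 and 9.98 CPM in A549/DDP. The 2 A549 libraries were nearly equal and stood well above both A549/DDP libraries. Of the 9 genes it had the most negative fitted value, a log2 fold change of -1.42 (standard error 0.37, 95% interval -2.31 to -0.53), and its adjusted p in edgeR was 0.0511. It was negative under 13 of the 14 alternatives and turned to 0.063 with the second A549 pair, where it had 2 and 0 counts. It was called lower under 4 of them, among them DESeq2 (adjusted p = 0.0109) and the replicate block in edgeR (log2 fold change -1.44, adjusted p = 0.033).

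ALKBH4 and ALKBH7 were higher in both A549/DDP libraries and ALKBH6 overlapped between the lines, and none of these 3 members passed in edgeR, adjusted or unadjusted. ALKBH4 (ENSG00000160993.3, chromosome 7, 102456238 to 102464863) had 6.57 and 6.60 CPM in A549 and 10.8 and 8.74 CPM in A549/DDP, and edgeR gave a difference of 0.57 on the log2 scale (standard error 0.53) with an adjusted p of 0.541. Its span shares 588 bases with that of ORAI2, a calcium channel gene next to its end. The expected counts of ALKBH4 and ORAI2 were fractional in each of the 4 inputs (216.36 and 1701.64 in A549 replicate 1), and their sums were whole numbers within 0.005 (1918 there). Reads were thus divided by estimation between the 2 genes, and the value of ALKBH4, the lower of them, is uncertain.

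ALKBH6 (ENSG00000239382.10, chromosome 19, 36009120 to 36014239) had 23.1 and 17.2 CPM in A549 and 26.1 and 18.7 CPM in A549/DDP. Its values overlapped between the lines, and the edgeR difference of 0.16 on the log2 scale (standard error 0.35) had an adjusted p of 0.827 and a sign that turned under 4 of the 14 alternatives. ALKBH7 (ENSG00000125652.7, chromosome 19, 6372794 to 6375250) had 7.75 and 9.11 CPM in A549 and 16.3 and 11.3 CPM in A549/DDP. Both A549/DDP values of ALKBH7 were higher, with a log2 fold change of 0.71 (standard error 0.45) and an adjusted p of 0.344 in edgeR. PSPN, a neurotrophic factor gene whose span overlaps the end of ALKBH7, also had more counts in A549/DDP (231 and 133) than in A549 (73 and 103), and its part in the value of ALKBH7 was not tested.

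**Figure D2:**
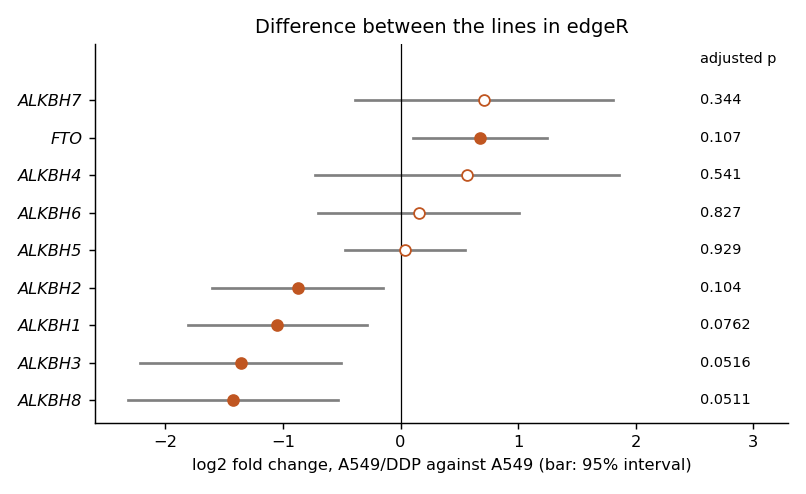
Log2 fold change of each gene, A549/DDP against A549, from edgeR with its 95% interval as a bar and the adjusted p at the right. Filled points have an unadjusted p under 0.05, and no adjusted p is under 0.05, the lowest being 0.0511 for ALKBH8.

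Levels of different genes were compared in TPM. ALKBH5 had the highest mean over the 4 inputs, 61.9 TPM (53.4 to 72.8), followed by FTO with 57.7 TPM (40.4 to 80.1), ALKBH3 with 52.1 TPM (23.2 to 78.0) and ALKBH2 with 52.1 TPM (33.7 to 72.2). ALKBH6 had a mean of 37.8 TPM, ALKBH7 30.4 TPM and ALKBH1 22.7 TPM, and ALKBH8 with 9.86 TPM (2.98 to 16.8) and ALKBH4 with 8.41 TPM (5.70 to 10.5) came last. No gene was apart from its neighbour in this order, since the ranges of each pair of neighbours overlapped. Among genes with a mean above 1 TPM, 79.57% lay under ALKBH5 and 34.36% under ALKBH4.

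The transcript length that RSEM used, a mean over isoforms weighted by their estimated shares, differed 2.05-fold between libraries for ALKBH1 and also for ALKBH8. For ALKBH1 it was 1683 and 1612 bases in A549 and 1065 and 2188 bases in A549/DDP. Its TPM was 28.82 in both A549 libraries but 22.89 and 10.3 in the A549/DDP libraries, where the expected counts were 417 and 477. The TPM values of ALKBH1 in the A549/DDP libraries differed more than its counts did. For ALKBH8 the length was 3150 and 2431 bases in A549 and 4079 and 1994 bases in A549/DDP, with TPM of 11.35, 16.79, 2.98 and 8.3 in the same order. The ratio of longest to shortest was 1.55 for ALKBH4 and at most 1.23 for the other 6 genes. Whether the isoforms themselves differed was not tested.

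The second pair of A549 inputs held too few counts to place most of these genes. ALKBH5 had 12 and 15 expected counts there, ALKBH2 6 and 6, FTO 3 and 6, ALKBH1 4 and 4 and ALKBH6 2 and 6. ALKBH7 and ALKBH8 had 0 in 1 library and 2 in the other, ALKBH3 had 1 and 0, and ALKBH4 had 0 in both. For a count of 0, the 95% Poisson interval reached 17.4 and 14.4 CPM when only counts outside mitochondrial genes make up the total. On that scale ALKBH4 had 6.13 and 6.77 CPM in the first pair. A lower level of ALKBH4 was therefore not detectable at this depth.

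By the root mean square difference of log2 CPM, with each gene centred on its mean over the 4 inputs, the genes most like FTO among 11347 genes were CDA, a cytidine deaminase (0.0315), KLHDC2, a substrate receptor of a ubiquitin ligase (0.0380), and THAP4 (0.0382). KLHDC2 had 25.6 and 28.6 CPM in A549 and 51.3 and 39.0 CPM in A549/DDP, so like FTO it was highest in A549/DDP replicate 1. Most like ALKBH5 were CSE1L, an export factor for importin alpha (0.00728), MELTF (0.0233) and CUL1, a ubiquitin ligase scaffold (0.0248). CSE1L had 124 and 161 CPM in A549 and 136 and 155 CPM in A549/DDP. With 4 libraries and this many genes, such likeness is a description only.

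The 4 lists of functionally related genes were read from the same edgeR fit, in which 6.85% of all genes were called higher and 8.0% lower in A549/DDP. Of 9 genes for m6A methyltransferases and their cofactors, 0 were called higher, 2 lower and 7 in neither direction, with a median log2 fold change of -0.56. METTL16, which methylates hairpins of its own set of target RNAs, had 190 and 149 CPM in A549 and 80.1 and 58.3 CPM in A549/DDP (log2 fold change -1.30, standard error 0.24, adjusted p = 0.0198 in edgeR). WTAP, a regulatory subunit of the METTL3 complex, had 109 and 73.3 CPM in A549 and 40.7 and 35.6 CPM in A549/DDP (log2 fold change -1.25, standard error 0.26, adjusted p = 0.0277 in edgeR). Of 5 YTH readers, YTHDC1, the nuclear reader, was called lower, from 474 and 321 CPM in A549 to 82.4 and 83.5 CPM in A549/DDP (log2 fold change -2.26, standard error 0.23, adjusted p = 0.00434 in edgeR), and the other 4 were not called. Of 7 genes for AlkB partners and other alkylation repair, OTUD4 alone was called. OTUD4, a scaffold that helps to stabilise ALKBH2 and ALKBH3 proteins, had 114 and 90.3 CPM in A549 and 57.9 and 48.6 CPM in A549/DDP (log2 fold change -0.94, standard error 0.22, adjusted p = 0.0382 in edgeR). None of 4 other dioxygenases that act on nucleic acids (TET1, TET2, TET3 and JMJD6) was called in edgeR, with 1 of them at an unadjusted p under 0.05.

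The m6A peaks of the 9 genes were read from the list of each m6A-seq library, where the authors give each peak a gene, a strand, exon blocks and a p-value. ALKBH2 and ALKBH5 had peaks in all 4 lists, whereas FTO and ALKBH8 had none in any list. No member had a peak in all 4 lists when only peaks with a p-value of 1e-05 or less were kept, or when each list was limited to the same number of peaks. The p-value limit left 4993 peaks in A549 replicate 2 and 5066 in A549/DDP replicate 2. Shares over all genes were not counted under these settings, nor was the share of genes without a peak in any list. Whether these counts set the members apart is therefore not known. The lists differed in size, with 26320 and 14576 peaks for A549 and 27244 and 10661 for A549/DDP, and they hold no read counts, so the depth behind a peak is unknown and an uncalled peak is not an unmethylated site. A peak was called on 7 and 3 members in the A549 lists, where 43.7% and 30.6% of the 16406 genes tested had one. In the A549/DDP lists a peak was called on 6 and 2 members, where 40.7% and 22.2% of genes had one. Both A549 lists held a peak for 3 members (27.1% of genes), both A549/DDP lists for 2 members (19.5%) and all 4 lists for 2 members (13.9%). With 2 lists for each line, no test was made.

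The lists of replicate 1 held 20 member peaks in A549 and 17 in A549/DDP, and those of replicate 2 held 5 and 4. Per 1000 peaks of the list this was 0.760 and 0.624 for replicate 1 and 0.343 and 0.375 for replicate 2. Both measures were thus higher in the replicate 1 list of each line. The A549 numbers follow the sample titles, and by the names of the files the higher A549 list would be replicate 2. Merging same-strand peaks with an overlap of 1 base or more gave 24 regions, of which 2 were called in all 4 lists, 4 in 3 lists, 5 in 2 lists and 13 in 1 list. No region was called in both lists of a line and in neither list of the other line, in either direction. These classes were not counted for the regions of all genes, so whether they set the members apart is not known.

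**Figure D3:**
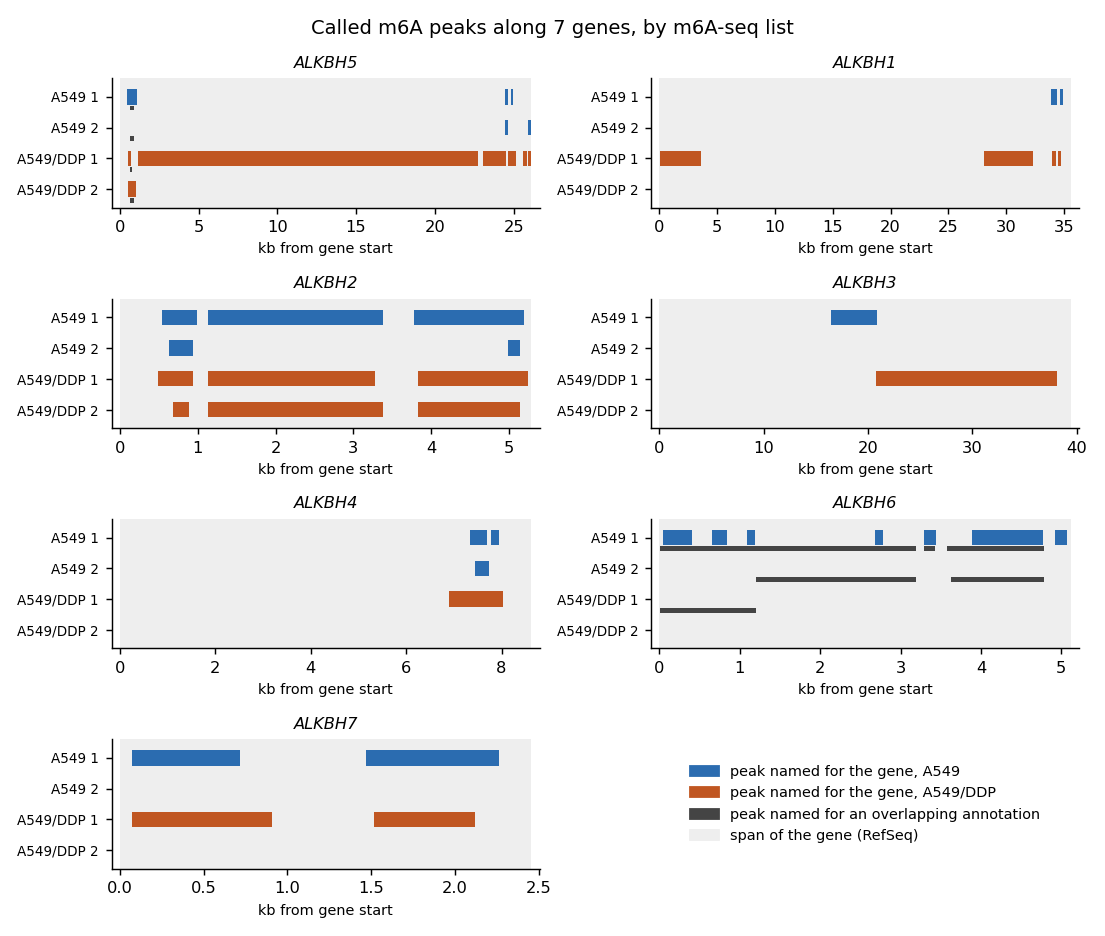
Called m6A peaks along 7 of the 9 genes in each m6A-seq list, with distance from the start of the gene in kb on the horizontal axis and each peak drawn from its first to its last base, introns between its blocks included. ALKBH2 has peaks in every row near both ends of the gene, the peaks of ALKBH6 occur in the A549 replicate 1 row only, and thin dark bars are peaks named for an annotation that overlaps ALKBH5 or ALKBH6.

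ALKBH2, on the minus strand, held both regions that were called in every list. The region from 109088238 to 109089693 of chromosome 12 lay 49 bases from the end of the gene, and its peaks had p-values from 3.3e-07 to 0.0056. The region from 109092487 to 109092984 began 488 bases from the start of the gene, with p-values from 3.8e-07 to 0.00072. In both regions the largest p-value belonged to A549 replicate 2. A region between them, from 109090091 to 109092337, was called in 3 lists and not in A549 replicate 2. ALKBH2 thus had peaks in every list while its RNA level was lower in both A549/DDP inputs.

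ALKBH5 had 3 and 2 peaks in the A549 lists and 6 and 1 peaks in the A549/DDP lists. The region from 18184300 to 18184948 of chromosome 17, which begins 472 bases from the start of the gene, was called in 3 lists and not in A549 replicate 2. The region from 18206912 to 18208957, towards the end of the gene, was called in 3 lists and not in A549/DDP replicate 2. A peak named for ENSG00000266677.1, an annotation on the opposite strand, began at 18184456 in all 4 lists, A549 replicate 2 included, and shared 298, 0, 94 and 248 bases with the ALKBH5 peaks of A549 replicates 1 and 2 and A549/DDP replicates 1 and 2. This annotation had 0 expected counts in all 6 inputs, so the strand to which the signal near the start of ALKBH5 belongs cannot be told from the lists.

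The other 5 genes with peaks had none in A549/DDP replicate 2. ALKBH4 had 2 and 1 peaks in the A549 lists and 1 in A549/DDP replicate 1, all in a single region from 102456828 to 102457959 of chromosome 7, near its end and beyond the last base of the ORAI2 span. ALKBH1 had 2 peaks in A549 replicate 1 and 4 in A549/DDP replicate 1, and the lists shared 1 region, from 77673601 to 77674150 of chromosome 14. ALKBH7 had 2 peaks in each of the same lists, in 2 shared regions, from 6372869 to 6373704 and from 6374263 to 6375057 of chromosome 19. ALKBH3 had 1 peak in each of those lists, with p-values of 0.005 and 0.0046, and its merged region of 21609 bases spans introns between blocks. From first to last base, the A549 peak (43897284 to 43901715 of chromosome 11) ran over the span of SEC14L1P1 (43897303 to 43899888). The A549/DDP peak (43901567 to 43918892) overlapped the span of ALKBH3-AS1 (43909289 to 43920944). The part of these 2 genes in the ALKBH3 peaks was not tested.

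ALKBH6 had 7 peaks in A549 replicate 1 and none in the other lists, and its RNA values overlapped between the lines. In A549 replicate 2 and A549/DDP replicate 1 the lists held 2 and 1 peaks inside the span of ALKBH6 that are named for ENSG00000248101.2, an annotation on the same strand with 0 expected counts in all 6 inputs. A549 replicate 1 held 3 such peaks. When a peak named for any gene inside the span was accepted, a rule added after the lists had been seen, the number of members with a peak in both A549 lists rose from 3 to 4 with ALKBH6, and the numbers for both A549/DDP lists and for all 4 lists were 2 and 2 as before. The single-list pattern of ALKBH6 therefore depends on the gene to which the authors' lists assign a peak.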

How the data were processed

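RNA of A549 and A549/DDP was measured in 6 input libraries, and 4 m6A-seq peak lists were used. The submitters' processing notes name STAR, RSEM, bedtools and hg38, without versions. The deposited expected counts are RSEM estimates, not normalized. In the deposited TPM and FPKM the authors had corrected for the length of transcripts and the size of libraries. The deposited peak lists give a p-value per peak, and whether it is raw or adjusted is not given in the sources used here. The peak caller is not given there either.

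The test was the quasi-likelihood test of edgeR 4.0.16 (R 4.3.3) on rounded expected counts of 4 inputs, the first pair of A549 and the pair of A549/DDP, after filterByExpr and TMM, with Benjamini-Hochberg adjustment over 16406 genes and a threshold of 0.05. Standard errors were derived from the log2 fold change and its F statistic. The script was tested on simulated data with less spread between libraries than these inputs had. Their common biological coefficient of variation, the spread beyond counting error, was 0.66. The simulation therefore does not measure the power of the test here. DESeq2 1.42.0, limma 3.58.1 (log2 with a pseudocount of 1 or 0.1, genes with a mean of at least 1), other filters and scalings, a replicate block, the second pair and left-out libraries were alternatives. Limits from counts of the second pair cover counting error only.

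Groups and replicate numbers follow the sample titles, and for the A549 m6A-seq lists these are exchanged relative to the names of the files. Gene spans come from RefSeq GRCh38.p14 and were used beside the hg38 peaks. The annotation used here gives spans only, so exon, intron and UTR positions of peaks are not analysed here. All 9 members are named. Genes of other lists are named if their adjusted p was under 0.05, and for FTO and ALKBH5 the 3 most alike genes with a mean of at least 5 CPM. The members and lists were chosen with earlier results of these data known.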

Additional observations from a re-analysis of the deposited data

How the results depend on the processing

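The number of genes past the threshold, 2437 in edgeR, was 4234 in DESeq2, 4010 with no filter beyond 1 count, 1492 and 1177 in limma on log2(TPM + 1) and log2(TPM + 0.1), 3758 with the second A549 pair in place of the first, 677 with both pairs, and 2052 to 3809 with a library left out. The number of members past it, 0 in edgeR, was 3 in DESeq2 (ALKBH1, ALKBH3 and ALKBH8). With no filter beyond 1 count 2 members passed, where 4010 of 22792 genes tested did. With at least 10 counts in every library 2 members passed, where 3614 of 12840 genes tested did. The 2 members were ALKBH3 and ALKBH8 each time, and these counts alone do not set the members apart. Where a library was left out, the line left with 1 library was assumed to vary like the other. With the replicate block 2 members (ALKBH3 and ALKBH8) and 3536 genes passed. The same numbers do not establish a pairing, since the deviations of same-numbered libraries had a correlation of 0.03, and the block changed no other member's call.

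ALKBH1 and ALKBH2 were negative under all 14 alternatives, and FTO, ALKBH4 and ALKBH7 were positive under the 13 other than the second A549 pair alone. With that pair FTO was at 0.99 from 3 and 6 counts and ALKBH7 at 0.74 from 0 and 2 counts. ALKBH7 thus lay under the median of all genes in that fit, 0.80. ALKBH4 had 0 counts in both libraries. No direction is given there for ALKBH4 or ALKBH7. ALKBH3 and ALKBH8 turned to 1.95 and 0.063 with the second A549 pair, where the median of all genes was 0.80 and ALKBH3 had 1 and 0 counts and ALKBH8 2 and 0. ALKBH5 turned to -0.039 in limma on log2(TPM + 1) and log2(TPM + 0.1), to -0.14 with the second pair, to -0.15 with both pairs, and ran from -0.15 to 0.23 with a library left out. ALKBH6 turned to -0.57 with the second pair and -0.13 with both, and ran from -0.12 to 0.37 with a library left out. The median of all genes was -0.20 without A549/DDP replicate 1 and -0.11 without A549/DDP replicate 2. The causes were not tested.

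Members with a peak in both A549 lists, both A549/DDP lists and all 4 lists numbered 3, 2 and 2. They were 0, 1 and 0 when the p-value of a peak had to be 1e-05 or less. With the same number of peaks per list they were 0 in each case. The shares of all genes under these settings were not counted. With a list left out, a peak was needed only in the lists that remained, so the numbers of 3, 2 and 2 could not fall. They ran from 3 to 7, from 2 to 6 and from 2 to 3. The 7 members came without A549 replicate 2 and the 6 members without A549/DDP replicate 2. Requiring 50% of the shorter peak to overlap gave 25 merged regions in place of 24. The depth of the m6A-seq libraries is unknown, and with 2 libraries a line small differences were not detectable.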
